A study of Mus musculus with 11 samples.

Results

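The expression of 10 genes of the vertebrate phototransduction cascade was followed through 4 mouse models of medulloblastoma, a tumour of the cerebellum. The genes are Sag, Gnat1, Gnat2, Gnb3, Gngt2, Pde6h, Pde6c, Arr3, Rcvrn and Aipl1. They were taken by symbol from a table of 38406 genes, and each symbol was found. RNA from cerebellar tumours of CD1 mice was sequenced at the 3′ ends of transcripts (QuantSeq), which gave 11 libraries.

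In the N1ICD model (n = 3) tumours carried MYC, Gfi1 and the Notch1 intracellular domain (N1ICD) in Math1-positive cells. Math1 is the protein of Atoh1 and marks the progenitors of granule neurons. The S100b-cell tumours (n = 3) expressed MYC and Gfi1 in S100b-positive cells, S100b being a calcium-binding protein of glia. The MYC/Otx2 tumours (n = 3) expressed MYC with Otx2, a homeodomain transcription factor of the retina and the fore- and midbrain, and the label calls this expression constitutive. The MYC/Gfi1 tumours (n = 2) expressed MYC with Gfi1, a zinc finger repressor, also constitutively. MYC was thus common to all 4 groups, Gfi1 was given to every group but MYC/Otx2, and Otx2 was given to that group alone. The sources used here do not give how the genes were delivered, which promoters drove them, the age of the mice or whether each library is a separate animal. The p-values below therefore measure the spread between libraries.

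Phototransduction is the cascade by which rods and cones turn light into an electrical signal. An opsin activates the G protein transducin, whose alpha subunit lifts the inhibitory subunit off phosphodiesterase 6 (PDE6), and the fall in cyclic GMP closes cation channels in the outer segment. Arrestin, opsin kinase, recoverin and a GTPase-activating complex shut the cascade down again. Rods and cones use paralogous parts for most steps, and in the retina Otx2 and its relative Crx are transcription factors of the photoreceptor lineage. Expression of photoreceptor genes is also a known trait of human Group 3 medulloblastoma, the subgroup which MYC/Gfi1 and MYC/Otx2 mice were made to model.

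Because the members with enough counts to test were highest in the tumours given Otx2, the DNA just upstream of the members' start sites was read. The same tumours were the only ones not given Gfi1, so Otx2 and the lack of Gfi1 cannot be told apart. RefSeq promoter windows (GRCm38.p6) were at hand for 5 of the 10 genes, Sag, Gnat2, Pde6h, Arr3 and Aipl1. Gnat1, Gnb3, Gngt2, Pde6c and Rcvrn had no entry. The windows hold the 250 bases before the start, 5′ to 3′ on the strand of the gene. They were searched on both strands for TAATCC and its reverse complement GGATTA, the letters classically bound by Otx and Crx homeodomains, and no other motif was searched. The windows of Sag (chr1:87803430-87803679, plus strand) and Aipl1 (chr11:72037510-72037759, minus strand) are shown as those with a match that lie outside annotated exons, with the match in capitals. Pde6h (chr6:136954273-136954522, plus strand) and Arr3 (chrX:100605247-100605496, plus strand) are shown as those without one.
Sag: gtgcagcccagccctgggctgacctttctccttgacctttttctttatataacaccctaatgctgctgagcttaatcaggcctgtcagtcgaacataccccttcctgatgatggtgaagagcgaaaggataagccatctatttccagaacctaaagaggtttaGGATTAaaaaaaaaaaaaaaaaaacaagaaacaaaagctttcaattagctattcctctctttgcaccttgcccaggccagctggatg
Aipl1: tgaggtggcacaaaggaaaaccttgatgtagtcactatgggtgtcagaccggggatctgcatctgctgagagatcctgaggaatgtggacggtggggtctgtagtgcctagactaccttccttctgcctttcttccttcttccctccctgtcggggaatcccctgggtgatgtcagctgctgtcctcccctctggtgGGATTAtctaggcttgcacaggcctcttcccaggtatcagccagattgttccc
Pde6h: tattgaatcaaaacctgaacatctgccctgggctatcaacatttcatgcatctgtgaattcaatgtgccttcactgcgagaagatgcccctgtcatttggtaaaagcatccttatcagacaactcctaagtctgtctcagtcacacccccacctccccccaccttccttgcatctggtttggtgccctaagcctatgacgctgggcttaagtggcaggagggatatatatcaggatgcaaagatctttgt
Arr3: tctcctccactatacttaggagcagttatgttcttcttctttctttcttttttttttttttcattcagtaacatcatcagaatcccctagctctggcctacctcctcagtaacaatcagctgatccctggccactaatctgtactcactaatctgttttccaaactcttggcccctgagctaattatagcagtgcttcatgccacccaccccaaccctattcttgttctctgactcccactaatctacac
The match lay 87 to 82 bases before the start of Sag and 53 to 48 bases before that of Aipl1. Gnat2 also held one, 19 to 14 bases before its start, in a window that other transcripts cover with an exon. The same letters occurred in 2054 of 32851 such windows over 27025 genes, or 6.25%. A match is only a run of letters, and its absence from a window of this length says nothing about binding elsewhere. Sag and Gnat2, with a match, and Pde6h, without, were all detected in the MYC/Otx2 tumours, while Aipl1, with a match, and Arr3, without, were near 0 in all groups.

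Library totals ran from 2.58 to 3.38 M counts in the N1ICD tumours, 12.77 to 15.19 M in the S100b-cell tumours, 6.97 to 8.33 M in the MYC/Otx2 tumours and 6.53 to 7.53 M in the MYC/Gfi1 tumours. A single count was thus worth 0.349 to 0.429 counts per M counts (CPM) in N1ICD libraries, and 0.0647 to 0.0782 CPM in S100b-cell libraries. Mitochondrially encoded genes took 23.2% to 27.6% of counts in the N1ICD, 14.7% to 18.5% in the S100b-cell, 5.18% to 5.74% in the MYC/Otx2 and 5.96% to 6.00% in the MYC/Gfi1 libraries. The labels name the libraries in 3 styles, and only the MYC/Otx2 and MYC/Gfi1 libraries share a style. What the styles stand for is not given. For the other comparisons, any batch that goes with the naming style cannot be told apart from the tumour model. As a check of the tissue, 8 genes of cerebellar identity summed to 19.5 to 159 CPM in N1ICD, 8.02 to 194 CPM in S100b-cell, 64.4 to 321 CPM in MYC/Otx2 and 63.6 to 2125 CPM in MYC/Gfi1 libraries. Atoh1 among them was at 0 in the N1ICD and the MYC/Otx2 tumours. The MYC/Gfi1 libraries were unlike, with 63.6 CPM of these 8 genes in replicate 1 and 2125 CPM in replicate 2. Likewise, 8 granule neuron genes summed to 104 and 3023 CPM in replicates 1 and 2, and 7 astroglial genes to 441 and 5451 CPM. In the other groups the granule neuron sums ran from 6.97 to 297 CPM and the astroglial sums from 65.2 to 2772 CPM. The part of such cells in the comparisons with MYC/Gfi1 was not tested.

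Of the 10 genes, 6 passed the low-count filter of edgeR and were tested, and all 6 had their highest level in the MYC/Otx2 tumours. The filter itself leaned on that group: without the MYC/Otx2 libraries 2 genes, Sag and Gngt2, would have passed, and Gnat2, Gnb3, Pde6h and Pde6c would not. Their counts below are therefore a description of where these genes were found, not a tally over the cascade. The other 4 genes, Gnat1, Arr3, Rcvrn and Aipl1, were at or near 0 throughout. A level in bulk RNA cannot tell fewer expressing cells from less RNA per cell.

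**Figure D1:**
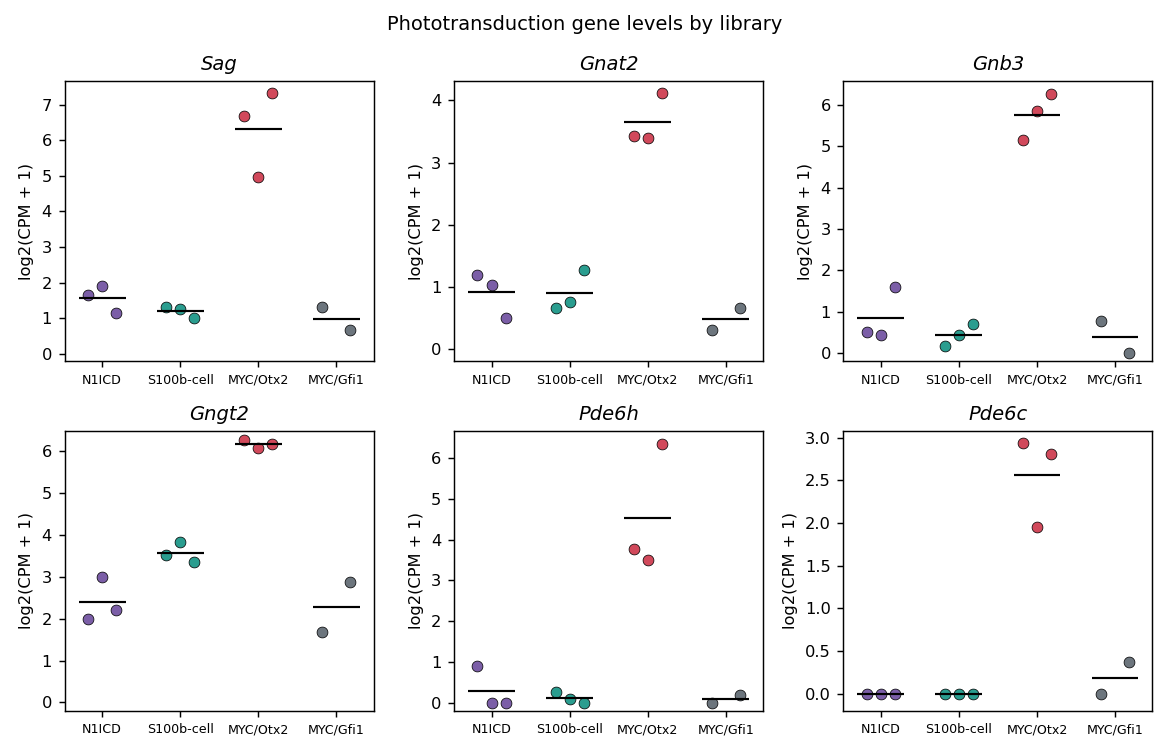
Level of each of the 6 tested genes in every library, as log2(CPM + 1) on the vertical axis, which differs between panels, with libraries as points and group means as lines. In each panel the 3 MYC/Otx2 libraries lie above the 8 others.

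The arrestins bind the activated visual pigment and end its signal. Sag, the rod arrestin or S-antigen, which mouse cones and the pineal gland also make, lies on chromosome 1 (87803680 to 87845158, plus strand, GRCm38). Sag reached 2.14, 2.79 and 1.22 CPM in N1ICD, 1.49, 1.38 and 1.02 CPM in S100b-cell, 102, 30.0 and 160 CPM in MYC/Otx2 and 1.52 and 0.581 CPM in MYC/Gfi1 libraries. Every MYC/Otx2 library was above every other library, and the other 3 groups overlapped each other. Sag was higher in MYC/Otx2 than in MYC/Gfi1 tumours by 6.49 ± 0.84 on the log2 scale (SE, adjusted p = 0.00871 in edgeR). Relative to MYC/Otx2 it was lower in the N1ICD tumours (log2 change -5.55 ± 0.69) and in the S100b-cell tumours (-6.21 ± 0.68 SE, adjusted p = 0.00121 and 0.00103 in edgeR). Arr3, the cone arrestin (chromosome X, 100605497 to 100618493, plus strand), had 2 counts in N1ICD replicate 2 and none elsewhere. The level of Arr3 was thus too low to test, in the same MYC/Otx2 tumours in which Sag was counted 241 to 1381 times.

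Transducin is a trimer of alpha, beta and gamma subunits. Gnat1, the rod alpha subunit (chromosome 9, 107674474 to 107679712, minus strand), had 1 count in N1ICD replicate 1 and 0 in the other 10 libraries. Gnat2, the cone alpha subunit (chromosome 3, 108092789 to 108101432, plus strand), was at 1.29, 1.05 and 0.406 CPM in N1ICD, 0.582, 0.692 and 1.41 CPM in S100b-cell, 9.75, 9.47 and 16.4 CPM in MYC/Otx2 and 0.233 and 0.581 CPM in MYC/Gfi1 libraries. The MYC/Otx2 libraries again stood above all others. The S100b-cell libraries lay narrowly above the MYC/Gfi1 pair, as 22.4% of all genes tested did, a difference that did not pass (log2 change 1.12 ± 0.74 SE, adjusted p = 0.393 in edgeR). Gnat2 was higher in MYC/Otx2 than in MYC/Gfi1 tumours by 4.84 ± 0.83 on the log2 scale (SE, adjusted p = 0.0172 in edgeR). It was lower in N1ICD than in MYC/Otx2 tumours, with a log2 change of -3.68 ± 0.69, and lower in S100b-cell than in MYC/Otx2 tumours, with -3.72 ± 0.64 (SE, adjusted p = 0.00639 and 0.00579 in edgeR).

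Gnb3, the cone transducin beta subunit, which ON bipolar cells also use, lies on chromosome 6 (124834240 to 124840275, minus strand). It was at 0.429, 0.349 and 2.03 CPM in N1ICD, 0.129, 0.346 and 0.626 CPM in S100b-cell, 34.3, 56.7 and 75.8 CPM in MYC/Otx2 and 0.699 and 0 CPM in MYC/Gfi1 libraries. The MYC/Otx2 libraries were the 3 highest, and the remaining groups overlapped. Gnb3 was higher in MYC/Otx2 than in MYC/Gfi1 tumours by 7.17 ± 1.16 on the log2 scale (SE, adjusted p = 0.0142 in edgeR). Against MYC/Otx2 tumours its log2 change was -5.89 ± 0.94 in N1ICD and -7.21 ± 0.94 in S100b-cell tumours (SE, adjusted p = 0.00336 and 0.00195 in edgeR).

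Gngt2, the cone transducin gamma subunit (chromosome 11, 95837216 to 95845734, plus strand), was at 3.00, 6.97 and 3.65 CPM in N1ICD, 10.4, 13.2 and 9.23 CPM in S100b-cell, 75.9, 66.5 and 71.2 CPM in MYC/Otx2 and 2.21 and 6.39 CPM in MYC/Gfi1 libraries. The group means ± SD were 4.54 ± 2.13 CPM in N1ICD, 10.95 ± 2.04 CPM in S100b-cell, 71.2 ± 4.67 CPM in MYC/Otx2 and 4.30 ± 2.95 CPM in the MYC/Gfi1 tumours (n = 3, 3, 3 and 2). The MYC/Otx2 libraries were highest, the S100b-cell libraries lay between without touching either side, and the N1ICD and MYC/Gfi1 libraries overlapped. Gngt2 was higher in MYC/Otx2 than in MYC/Gfi1 tumours by 4.05 ± 0.55 on the log2 scale (SE, adjusted p = 0.00999 in edgeR). Relative to MYC/Otx2 it was lower in N1ICD (log2 change -3.95 ± 0.47) and in S100b-cell tumours (-2.70 ± 0.43 SE, adjusted p = 0.00106 and 0.00416 in edgeR). The middle place of the S100b-cell tumours did not pass either way. Such a gap without overlap occurred in 22.4% of all genes tested for S100b-cell above MYC/Gfi1, and in 15.1% for N1ICD below S100b-cell libraries. The log2 change was 1.35 ± 0.48 over MYC/Gfi1, and that of N1ICD over S100b-cell tumours was -1.26 ± 0.44 (SE, adjusted p = 0.125 and 0.166 in edgeR, unadjusted 0.0184 and 0.0161).

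Gngt2 is also made by myeloid cells, so the microglial markers are set beside it. All 8 (C1qa, C1qb, C1qc, Csf1r, Cx3cr1, P2ry12, Tmem119 and Aif1) were detected in each group. They summed to 159 to 229 CPM in N1ICD, 552 to 841 CPM in S100b-cell, 114 to 401 CPM in MYC/Otx2 and 536 to 761 CPM in MYC/Gfi1 libraries. The MYC/Otx2 tumours, highest in Gngt2, were thus below the MYC/Gfi1 tumours in the sum of these markers in every library. Single markers could overlap: C1qb was at 103 CPM in MYC/Otx2 replicate 1 and 81.1 CPM in MYC/Gfi1 replicate 1. In that comparison edgeR called 0 of the 8. The sums of the S100b-cell and MYC/Gfi1 tumours overlapped, with Gngt2 at 9.23 to 13.2 CPM and 2.21 to 6.39 CPM. The part of these cells in the S100b-cell level of Gngt2 was not tested. The exons of Gngt2 overlap those of Abi3 on the other strand, and the sources used here do not give the strand setting of the counting. Abi3 had at most 2 counts in any library, which without the strand setting cannot show how tags of the overlap were assigned.

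PDE6 breaks down cyclic GMP and is held inactive in the dark by its small inhibitory subunit. Pde6c, the cone catalytic subunit (chromosome 19, 38132781 to 38183958, plus strand), had no count in any N1ICD or S100b-cell library, 47, 23 and 52 counts (6.64, 2.86 and 6.01 CPM) in the MYC/Otx2 libraries and 0 and 2 counts (0 and 0.290 CPM) in the MYC/Gfi1 libraries. It was at least 13.1-fold lower in the N1ICD and at least 73.1-fold lower in the S100b-cell tumours than in MYC/Otx2 tumours, taking 3 counts over the group as the floor (adjusted p = 0.0286 and 0.0145 in edgeR). The ratio of MYC/Otx2 over MYC/Gfi1 was 39.7 (95% counting interval 10.8 to 332). Although no library of these groups overlapped, that difference did not pass (log2 change 5.10 ± 1.44 SE, adjusted p = 0.0899 in edgeR).

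Pde6h, the cone inhibitory subunit (chromosome 6, 136923832 to 136968865, plus strand), had 2, 0 and 0 counts in the N1ICD, 3, 1 and 0 in the S100b-cell, 89, 82 and 697 in the MYC/Otx2 and 0 and 1 in the MYC/Gfi1 libraries. The MYC/Otx2 counts correspond to 12.6, 10.2 and 80.5 CPM. All 3 MYC/Otx2 libraries stood clear of the rest, with replicate 3 far above its companions. Pde6h was higher in MYC/Otx2 than in MYC/Gfi1 tumours, with a ratio of 565 (95% counting interval 101 to 22338; adjusted p = 0.0293 in edgeR). It was 140-fold lower in N1ICD than in MYC/Otx2 tumours (95% counting interval 38.6 to 1158, adjusted p = 0.00896 in edgeR). In S100b-cell tumours its log2 change against MYC/Otx2 was -8.33 ± 1.36 (SE, adjusted p = 0.00482 in edgeR). Its exons overlap those of Arhgdib on the other strand, which was at 2.97, 7.85 and 3.81 CPM in MYC/Otx2 and 9.68 and 11.9 CPM in MYC/Gfi1 libraries. Its libraries lay lower in MYC/Otx2 than in MYC/Gfi1 tumours, the other way from Pde6h. Arhgdib was called in no comparison, with edgeR adjusted p of 0.0792 or more.

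The remaining members act around the cascade. Rcvrn encodes recoverin, a calcium sensor that restrains opsin kinase (chromosome 11, 67695326 to 67703333, plus strand), and had 0 counts in all 11 libraries. With 3 counts as the floor, this allows at most 0.0335 CPM over the whole set. By group it allows 0.391 CPM in N1ICD, 0.0702 CPM in S100b-cell, 0.126 CPM in MYC/Otx2 and 0.194 CPM in MYC/Gfi1 tumours. Aipl1 encodes a chaperone needed to assemble PDE6 (chromosome 11, 72027963 to 72037509, minus strand). It had 9 counts in all, 1 in N1ICD replicate 2, 5 in S100b-cell replicate 3 and 3 in MYC/Otx2 replicate 3. Gnat1, Arr3, Rcvrn and Aipl1 fell below the filter and were not tested.

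Between the constitutive models, whose libraries share a naming style, 5 of the 6 genes tested were higher in MYC/Otx2 than in MYC/Gfi1 tumours (edgeR, adjusted p under 0.05). Over all 15228 genes tested, 2.43% were called higher and 3.03% lower. For all 6, no MYC/Otx2 library overlapped a MYC/Gfi1 library, against 20.1% of all genes tested for that direction. The count rested on few libraries: it was 2 (Sag and Gngt2) without MYC/Otx2 replicate 3, and 3 (Sag, Gnb3 and Gngt2) without MYC/Otx2 replicate 1 or without MYC/Gfi1 replicate 2. Pde6h was also lost without MYC/Gfi1 replicate 1. Gnat2, Gnb3, Pde6h and Pde6c passed the filter only through the MYC/Otx2 libraries, so for these 4 the shares over all genes are no yardstick. Sag and Gngt2 would have passed without those libraries, and both were called higher.

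Against the MYC/Otx2 tumours, 6 of 6 genes tested were lower in the N1ICD tumours, where 9.76% of all genes tested were called lower and 12% higher. In the S100b-cell tumours 6 of 6 were lower as well, where 7.89% of all genes were called lower and 10% higher. In both comparisons all 6 genes had libraries that did not overlap, as did 20.8% (N1ICD) and 21.8% (S100b-cell) of all genes tested in that direction. Here too Gnat2, Gnb3, Pde6h and Pde6c lean on the filter, so the shares over all genes are no yardstick for them. Sag and Gngt2, which do not, were called lower in both. These 3 comparisons use the same MYC/Otx2 libraries and are not independent of each other. The call of Pde6c in the N1ICD tumours was lost without N1ICD replicate 2 or 3 and without any single MYC/Otx2 library, with edgeR adjusted p up to 0.0897. The other calls against MYC/Otx2 held with each library left out.

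**Figure D2:**
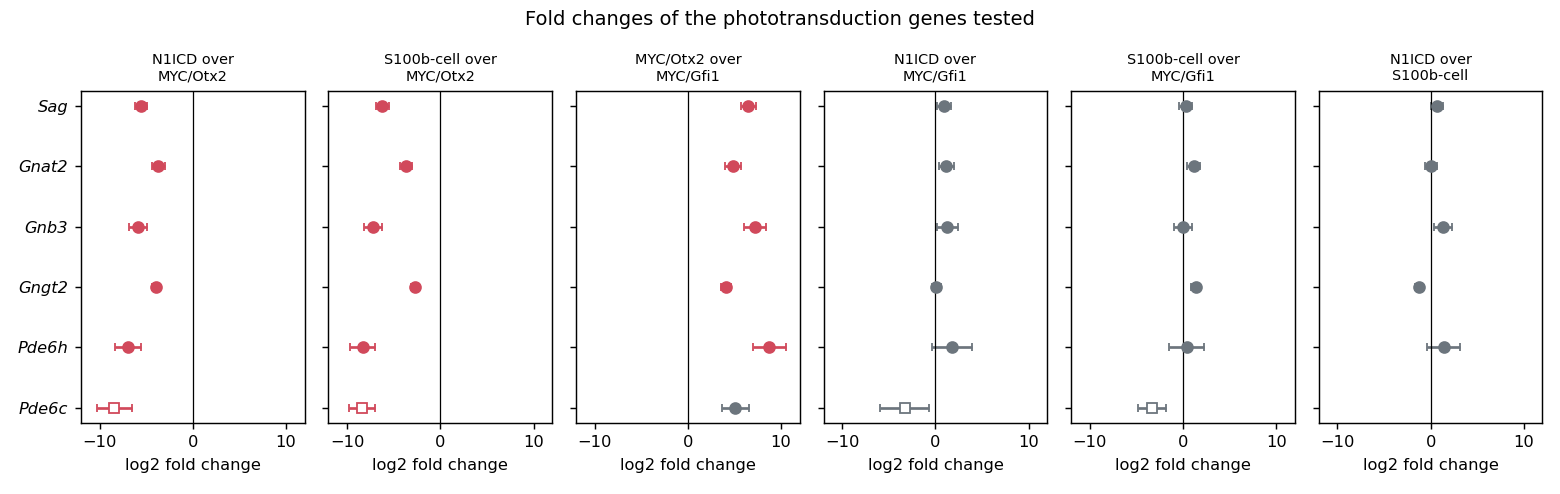
Log2 fold change with its SE for the 6 tested genes in the 6 comparisons, red where the edgeR adjusted p was under 0.05 and grey otherwise. Open squares mark a group with 0 counts, where the fitted value rests on a prior count, and Pde6c has no point in the last panel since both groups are at 0. Calls appear in the 3 panels that involve MYC/Otx2 tumours, with 6, 6 and 5 genes.

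The other 3 comparisons held no called member. N1ICD over MYC/Gfi1 gave edgeR adjusted p of 0.367 to 0.916 with 0 genes at an unadjusted p under 0.05, where 11.5% of all genes were called. S100b-cell over MYC/Gfi1 gave 0.125 to 0.989 with 1 gene, Gngt2, at an unadjusted p under 0.05, where 4.35% of all genes were called. N1ICD over S100b-cell gave 0.166 to 1 with 1 gene, again Gngt2, where 1.21% of all genes were called. DESeq2 and limma-voom also called 0 of these genes in each of the 3 comparisons. For Sag, Gnat2, Gnb3, Pde6h and Pde6c the levels in these groups were at most 2.79 CPM. The order of the 3 groups below MYC/Otx2 is not resolved for these genes.

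Within the MYC/Otx2 group the members did not vary alike. Gngt2 was almost level, with the highest library 1.14 times the lowest (coefficient of variation 6.56%), while Pde6h spanned 7.89-fold (116%) and Sag 5.32-fold (66.7%). Gnat2, Gnb3 and Pde6c spanned 1.73-fold, 2.21-fold and 2.32-fold. Replicate 3 was highest for Sag, Gnat2, Gnb3 and Pde6h, and replicate 1 was highest for Gngt2 and Pde6c. Replicate 2 was lowest for all of these but Gnb3, whose lowest was replicate 1. Counts at mouse Otx2 itself were 13.7, 42.5 and 97.0 CPM in replicates 1, 2 and 3, a 7.08-fold span. Crx stood at 4.10, 9.72 and 7.63 CPM. Elsewhere Otx2 was at 13.7, 0 and 0.812 CPM in N1ICD, 0, 2.77 and 0 CPM in S100b-cell and 2.80 and 0.436 CPM in MYC/Gfi1 libraries. N1ICD replicate 1 thus reached the level of MYC/Otx2 replicate 1, and edgeR called Otx2 in no comparison with MYC/Otx2. A list of 6 choroid plexus genes summed to 4752, 4.18 and 4.46 CPM in N1ICD replicates 1, 2 and 3. It summed to 595 and 30.8 CPM in MYC/Gfi1, 1.75 to 18.1 CPM in S100b-cell and 4.62 to 12.9 CPM in MYC/Otx2 libraries. The part of such cells in the Otx2 level of N1ICD replicate 1 was not tested. Whether 3′ tags of the Otx2 transgene fall on the mouse gene depends on how the transgene ends, which the sources used here do not give. With 3 libraries no relation between Otx2 and these genes was tested.

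**Figure D3:**
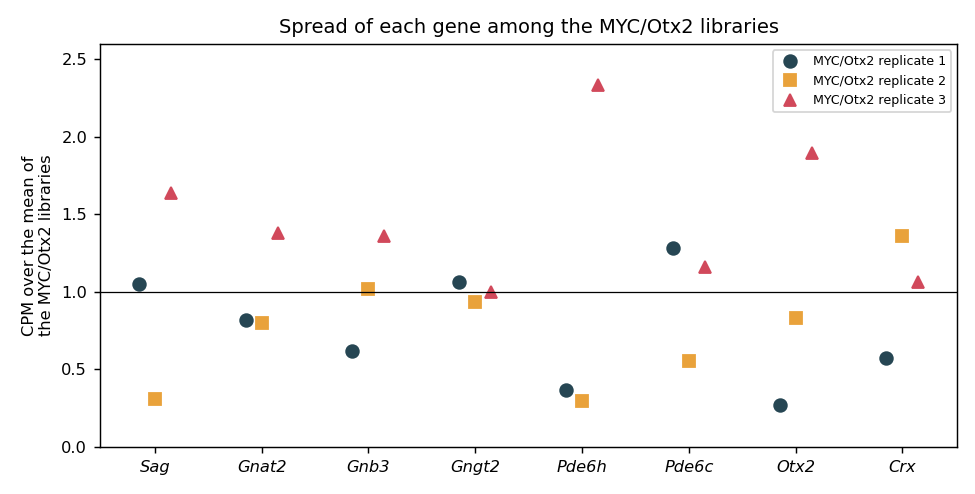
CPM in each MYC/Otx2 library divided by the mean of the 3, for the 6 tested genes and for Otx2 and Crx, with replicates 1, 2 and 3 as circles, squares and triangles. Gngt2 stays near 1 in all 3 libraries, while the triangle of replicate 3 stands highest for Sag, Gnat2, Gnb3, Pde6h and Otx2.

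The rest of the cascade was read from a list of 25 further genes, of which 13 were tested. Here too the filter leaned on MYC/Otx2: without those libraries 7 would have passed, and Pde6g, Cngb3, Grk1, Guca1a, Rgs9 and Slc24a1 would not. For these 6 the counts describe where they were found, and the medians of the 13 lean on the filter in the same way. In MYC/Otx2 over MYC/Gfi1 tumours 3 of the 13 were higher and 0 lower (2.43% and 3.03% of all genes tested), and the median log2 change was 1.39, against -0.14 over all genes tested. Those 3 were Pde6g, the rod PDE6 inhibitory subunit, Rgs9bp, which anchors the GTPase-activating protein that switches transducin off, and Guca1a, a calcium-dependent activator of guanylate cyclase. Rgs9bp stood at 235, 248 and 232 CPM in MYC/Otx2 libraries, against 12.1 and 2.76 CPM in MYC/Gfi1 libraries, with no overlap (log2 change 4.99 ± 1.17 SE, adjusted p = 0.0420 in edgeR). Pde6g was at 19.4, 12.8 and 16.1 CPM in MYC/Otx2, against 0 and 0.581 CPM in MYC/Gfi1 libraries, also apart (5.79 ± 1.08, adjusted p = 0.0217 in edgeR). The calls depended on few libraries: 0 of the 3 remained without MYC/Otx2 replicate 1 or 3, and 1 without MYC/Otx2 replicate 2, MYC/Gfi1 replicate 2 or S100b-cell replicate 2 or 3. Guca1a was also lost without N1ICD replicate 3 or S100b-cell replicate 1.

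In N1ICD over MYC/Otx2 tumours 5 of the 13 genes were lower and 0 higher (9.76% and 12% of all genes tested), with a median log2 change of -2.90 (-2.85 with genes at 0 set to their bound), against 0.14 over all genes. They were Rgs9bp, Pde6g, Slc24a2, Guca1a and Unc119, a trafficking partner of transducin. Rgs9bp was at 1.29, 0.349 and 10.5 CPM in N1ICD libraries, a log2 change of -5.89 ± 1.06 against MYC/Otx2 (SE, adjusted p = 0.00562 in edgeR) that held with each library left out. Slc24a2, a sodium/calcium-potassium exchanger of cones and brain, had 0 counts in the N1ICD libraries and was at least 30.1-fold lower (adjusted p = 0.0231 in edgeR), a call lost without N1ICD replicate 2 or MYC/Otx2 replicate 1 or 2. The number called ran from 1, without N1ICD replicate 2 or MYC/Otx2 replicate 1, to 8, without either MYC/Gfi1 library; it was 3 without N1ICD replicate 1 or 3 and 2 without MYC/Otx2 replicate 3.

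In S100b-cell over MYC/Otx2 tumours 8 of the 13 were lower and 0 higher (7.89% and 10% of all genes tested), with a median log2 change of -2.69, against 0.17 over all genes. Besides Rgs9bp, Pde6g, Guca1a and Unc119 they were Rgs9, the GTPase-activating protein itself, Grk1, the opsin kinase of rods, Slc24a1, the rod exchanger, and Gnb1, the rod transducin beta subunit, which many other cells use too. Gnb1 was at 116, 121 and 114 CPM in S100b-cell libraries, against 197, 203 and 228 CPM in MYC/Otx2 libraries (log2 change -0.84 ± 0.23 SE, adjusted p = 0.0349 in edgeR), a call lost without any single library of either group. The number called was 2 without S100b-cell replicate 2, 3 without S100b-cell replicate 3, and 4 without S100b-cell replicate 1 or any single MYC/Otx2 library.

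**Figure D4:**
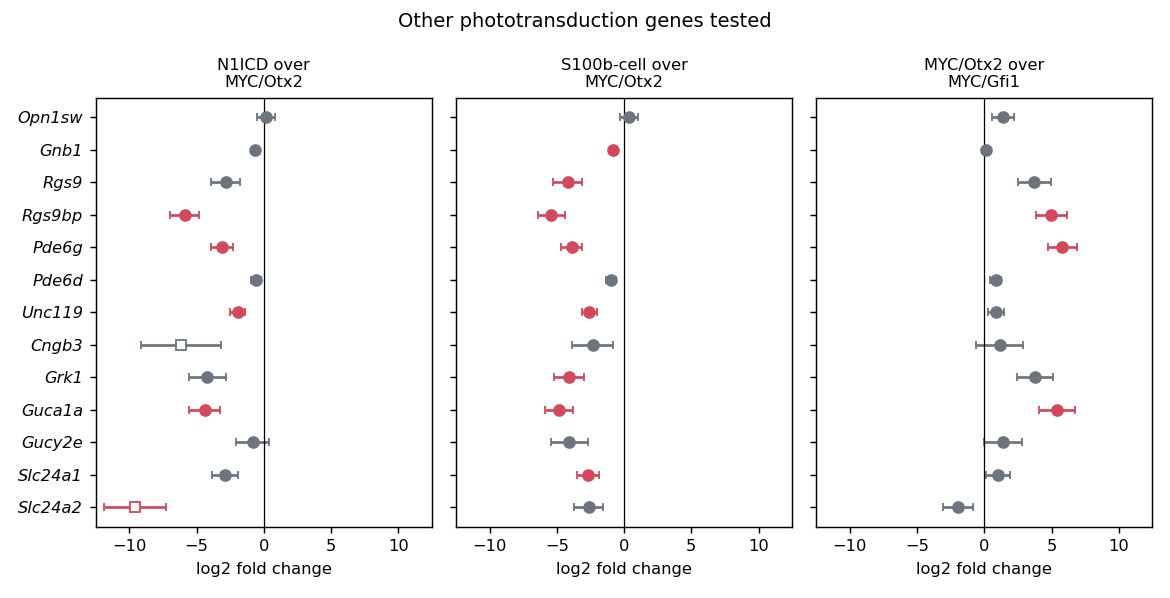
Log2 fold change with its SE for the 13 tested genes of the rest of the cascade in the 3 comparisons that involve MYC/Otx2 tumours, red where the edgeR adjusted p was under 0.05. Open squares mark a group with 0 counts. Red points lie left of 0 in the first and second panels, for 5 and 8 genes, and right of 0 in the last, for 3.

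Several defining genes of the outer segment were at or near 0 in the same tumours. The green cone opsin Opn1mw and the rod genes Gngt1, Pde6b and Cngb1 had 0 counts in all 3 MYC/Otx2 libraries. Opn1sw, the short-wavelength cone opsin, was at 2.58 CPM or less in each of the 11 libraries, with 17, 10 and 11 counts in the MYC/Otx2 libraries, and was called in none of the comparisons with MYC/Otx2. Slc24a2 was also lower in N1ICD than in MYC/Gfi1 tumours (adjusted p = 0.0196 in edgeR), a call lost without MYC/Gfi1 replicate 2.

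Transcription factors of photoreceptors moved in part with the members. Of 13 listed, 9 were tested, of which Crx and Samd7 passed the filter through the MYC/Otx2 libraries alone. The calls of Crx and Samd7 describe where they were found, and the medians include both. In MYC/Otx2 over MYC/Gfi1 tumours 2 of the 9 were higher, where 2.43% of all genes were, with a median log2 change of 2.92. Crx had 29, 78 and 66 counts in the MYC/Otx2 libraries and 0 in both MYC/Gfi1 libraries, and was at least 37.5-fold higher (adjusted p = 0.0271 in edgeR). Rxrg, a retinoid receptor of cones, was at 217, 157 and 169 CPM in MYC/Otx2, against 1.40 and 0.581 CPM in MYC/Gfi1 libraries (log2 change 7.47 ± 1.75 SE, adjusted p = 0.0420 in edgeR). Neither call remained without any single MYC/Otx2 library or without MYC/Gfi1 replicate 2, and Rxrg was also lost without MYC/Gfi1 replicate 1 or any single S100b-cell library. Crx was lower than in MYC/Otx2 tumours by a log2 change of -5.61 ± 1.23 in the N1ICD and -7.53 ± 1.18 in the S100b-cell tumours (SE, adjusted p = 0.0143 and 0.00507 in edgeR), and these calls held with each library left out. In all, 3 of the 9 were lower in the N1ICD (median log2 change -3.42; 1 to 4 calls with a library left out) and 3 in the S100b-cell tumours (-2.15; 2 to 4), where 9.76% and 7.89% of all genes were called lower. The rod factors Nrl and Nr2e3 had 0, 0 and 12, and 2, 0 and 0 counts in the MYC/Otx2 libraries. Neurod1 had the higher mean in MYC/Gfi1, at 83.0 and 482 CPM, against 34.9, 87.7 and 68.5 CPM in MYC/Otx2 libraries, and was not called. The 13 genes summed to 28.0 to 111 CPM in N1ICD, 38.4 to 178 CPM in S100b-cell, 344 to 535 CPM in MYC/Otx2 and 133 to 575 CPM in MYC/Gfi1 libraries. The highest MYC/Gfi1 sum, that of replicate 2, thus lay above every MYC/Otx2 library, but 482 CPM of its 575 CPM was Neurod1. Crx, Nrl, Nr2e3, Samd7 and Ankrd33 had 0 counts in the MYC/Gfi1 libraries.

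Genes of photoreceptor structure and of the visual cycle were read in the same way. Of those tested, 7 of the 11 structural and 4 of the 8 visual cycle genes passed the filter through the MYC/Otx2 libraries alone. Rpgrip1 and Abca4 were among them. The calls of such genes and the list medians thus lean on the filter. They describe where the genes were found. Of 19 structural genes 11 were tested, and 1 was higher in MYC/Otx2 than in MYC/Gfi1 tumours (2.43% of all genes tested), with a median log2 change of 4.44 (3.35 with genes at 0 set to their bound). It was Rpgrip1, a protein of the connecting cilium, at 5.79, 12.3 and 9.59 CPM in MYC/Otx2, against 0.117 and 0.145 CPM in MYC/Gfi1 libraries (log2 change 5.99 ± 0.90 SE, adjusted p = 0.0136 in edgeR; 0.0517 without MYC/Gfi1 replicate 2). Of 11 visual cycle genes 8 were tested and 0 called by edgeR in that comparison, with 3 at an unadjusted p under 0.05, 1 called by DESeq2 and 2 by limma-voom. Their median log2 change was 2.42 (1.02 with genes at 0 set to their bound), and 1 was called without N1ICD replicate 1 or 2. Abca4, the retinoid flippase of outer segments, came nearest at 8.33, 12.6 and 3.12 CPM in MYC/Otx2, against 0.117 and 0.290 CPM in MYC/Gfi1 libraries (adjusted p = 0.0520 in edgeR). Against MYC/Otx2 tumours, 5 structural genes were lower in the N1ICD (median log2 change -3.54; 1 to 6 calls with a library left out) and 5 in the S100b-cell tumours (-3.25; 2 to 8). Of the visual cycle genes, 3 were lower in the N1ICD (-2.07; 1 to 3) and 2 in the S100b-cell tumours (-2.10; 1 to 3). Over all genes tested 9.76% were lower in the N1ICD and 7.89% in the S100b-cell tumours.

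Several members are shared with other cells of the retina and with the pineal gland, so markers of these were read beside them. Of 12 bipolar cell genes 7 were tested, and Vsx1 and Grm6 were among those that passed the filter through the MYC/Otx2 libraries alone. The calls of Vsx1 and Grm6 describe where they were found, and the medians include both. In MYC/Otx2 over MYC/Gfi1 tumours 2 were higher and 1 lower (2.43% and 3.03% of all genes tested), with a median log2 change of 2.67. Vsx1, a homeodomain factor of cone bipolar cells, was at 0 in all N1ICD libraries, 0, 0 and 0.156 CPM in S100b-cell, 55.0, 64.5 and 61.7 CPM in MYC/Otx2 and 0 in both MYC/Gfi1 libraries. Grm6, the glutamate receptor of ON bipolar cells, was at 4.10, 68.8 and 56.9 CPM in MYC/Otx2 libraries and at 0 in the MYC/Gfi1 libraries. Both were higher in MYC/Otx2 than in MYC/Gfi1 tumours, at least 313-fold and at least 233-fold (adjusted p = 0.0125 and 0.0394 in edgeR). The call of Vsx1 was lost without MYC/Otx2 replicate 3, and that of Grm6 without MYC/Otx2 replicate 2 or 3, either MYC/Gfi1 library or S100b-cell replicate 2 or 3. Prkca, a kinase of rod bipolar cells and many neurons, was lower, with a log2 change of -2.29 ± 0.53 (SE, adjusted p = 0.0392 in edgeR), a call lost without any single MYC/Otx2 library, MYC/Gfi1 replicate 2 or S100b-cell replicate 2 or 3. Against MYC/Otx2 tumours 3 of the 7, Vsx1, Grm6 and Lhx4, were lower and 1, Gpr179, was higher, both in the N1ICD (median log2 change -6.85, or -4.63 with genes at 0 set to their bound) and in the S100b-cell tumours (-4.58). These 4 calls held with each library left out in both comparisons, where 9.76% and 7.89% of all genes were lower and 12% and 10% higher; limma-voom called Vsx1 alone in the N1ICD comparison, and the fit of those 2 groups alone lost Gpr179. Gpr179, a partner of Grm6 signalling, was at 27.0, 1.39 and 6.49 CPM in N1ICD libraries and 16.8, 39.6 and 8.68 CPM in S100b-cell libraries, against 0 in all MYC/Otx2 libraries. It was at least 85.8-fold higher in the N1ICD and at least 175-fold higher in the S100b-cell tumours (adjusted p = 0.0128 and 0.0111 in edgeR). The 12 genes summed to 18.5 to 40.3 CPM in N1ICD, 38.4 to 95.8 CPM in S100b-cell, 85.7 to 190 CPM in MYC/Otx2 and 88.4 to 126 CPM in MYC/Gfi1 libraries.

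Of the 4 pineal genes, the melatonin enzymes Aanat and Asmt had 0 counts in the MYC/Otx2 libraries. The 4 summed to 0 to 1.29 CPM in N1ICD, 19.5 to 27.9 CPM in S100b-cell, 22.0 to 36.6 CPM in MYC/Otx2 and 1.31 to 50.0 CPM in MYC/Gfi1 libraries, most of it Drd4. Of 6 genes of the retinal pigment epithelium, Best1, Tyr and Tyrp1 were at 0 in the MYC/Otx2 libraries, and Dct was at 0.424, 10.6 and 59.3 CPM there. Summed, the 6 gave 0.812 to 4.72 CPM in N1ICD, 1.36 to 2.42 CPM in S100b-cell, 1.27 to 59.4 CPM in MYC/Otx2 and 0 to 1.02 CPM in MYC/Gfi1 libraries. The part of such cells in the levels of Sag, Gnb3 and the others was not tested.

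The genes whose level over the 11 libraries was most like that of the 6 tested members were found by the root mean square difference of centred log2(CPM + 1) values. Lrp2 was nearest at 0.228, followed by Fbxw18 (0.266), Lpar2 (0.347), Rpp25 (0.362), Grhl1 (0.383), Tdrd5 (0.389), Tal2 (0.416) and Mak (0.430). The members themselves were at 0.511 (Gnat2) to 0.750 (Gnb3) from their own mean, and the median gene tested was at 1.93. Lpar2, a lysophosphatidic acid receptor, was at 0.429, 1.05 and 0.812 CPM in N1ICD, 1.55, 0.553 and 1.25 CPM in S100b-cell, 26.7, 29.3 and 29.8 CPM in MYC/Otx2 and 0.583 and 0.581 CPM in MYC/Gfi1 libraries. Mak, a kinase first known from male germ cells, was at 16.5, 21.8 and 26.3 CPM in MYC/Otx2 libraries and at most 0.871 CPM elsewhere. Likeness was judged over libraries that fall into 1 high and 3 low groups, so it mostly records that contrast.

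**Figure D5:**
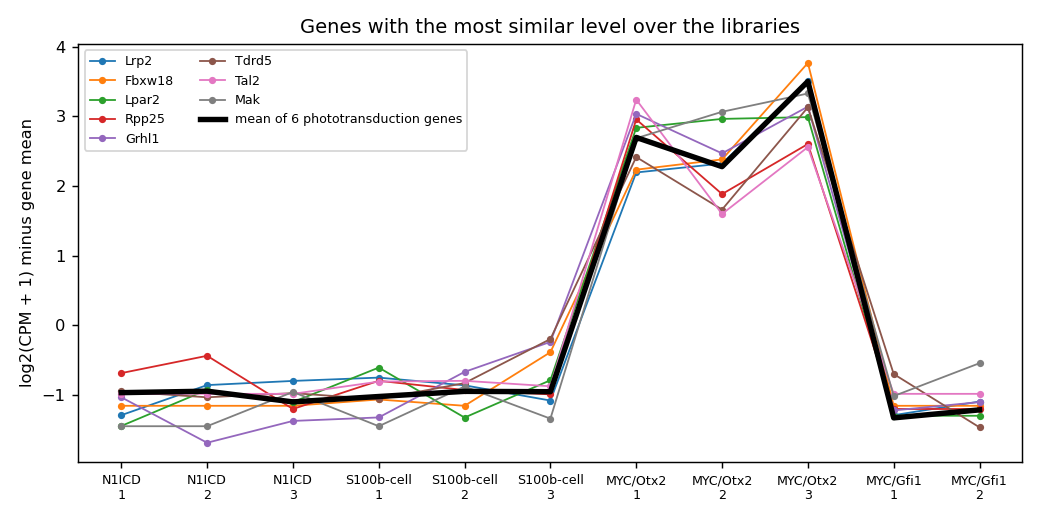
Level of the 8 most similar genes (thin lines) and the mean of the 6 tested members (thick line) in each library, as log2(CPM + 1) minus the mean of each gene. All lines stay below 0 in the N1ICD, S100b-cell and MYC/Gfi1 libraries and peak in the 3 MYC/Otx2 libraries.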

How the data were processed

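RNA was extracted with TRIzol and made into QuantSeq forward 3′ libraries with unique molecular identifiers, per the labels' protocols. What the authors deposited was a table of raw, unnormalized counts by gene symbol, with 11 library columns. STAR 2.4.1d, HTSeq 0.6.1 and mm10 are named in the submitters' processing notes; the sources used here do not give the annotation release, the strand setting or any collapse of identifiers, so floors and intervals cover counting error only. Groups followed the sample titles.

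Genes were filtered with filterByExpr by group (15228 of 38406 kept), scaled by TMM and fitted together over the 4 groups, because MYC/Gfi1 had 2 libraries, with the robust quasi-likelihood test of edgeR 4.0.16 (R 4.3.3; 7 residual degrees of freedom). Two-sided p-values were adjusted over all tested genes (Benjamini-Hochberg) and called at 0.05. CPM used TMM-scaled totals, and the SE was the log2 fold change over the square root of F. The fit was tested on simulated data. Within groups the libraries differed beyond sampling noise, so each was counted as a replicate library. That spread cannot show whether they came from separate animals. Alternatives were RLE and upper-quartile factors, no filter, DESeq2 1.42.0, limma-voom 3.58.1, a fit of 2 groups, a replicate block and each library left out; applying them to the lists was decided after seeing the data.

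Members and lists were chosen with earlier results of these data known. The text names the 10 members; from each list described, called genes by smallest p and uncalled genes by highest CPM, with defining genes at or near 0 added after their values were seen; and the 8 genes nearest the members in profile, with a pseudocount of 1, leaving out numbered gene models. Values of some listed genes are not reported here. Positions come from GENCODE M21 (GRCm38, the assembly also called mm10), sequences from RefSeq.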

Additional observations from a re-analysis of the deposited data

How the results depend on the processing

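Each comparison was repeated under 18 alternatives, 11 of which left out a library. Of the 6 tested genes, 5 were higher in MYC/Otx2 than in MYC/Gfi1 tumours; this was 2 to 5 with a library left out, 3 with the replicate block and up to 6 with DESeq2. Against MYC/Otx2 the count stayed at 5 or 6 in N1ICD tumours, and in S100b-cell tumours it was 6 except 5 with the block. The remaining comparisons gave 0 called members under each alternative run. Of the 15 member results whose libraries overlapped, 10 changed sign somewhere and 0 were ever called, so no direction is drawn from them. The causes were not tested. N1ICD depth limits what low levels can show there.

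Replicate numbers recur across groups, but of 15 same-number library pairs 3 correlated over 0.1 in their deviations from the group mean (r from -0.18 to 0.21), so the numbers were not taken as pairing. With the replicate block 3 members, Sag, Gnb3 and Gngt2, were higher in MYC/Otx2 than in MYC/Gfi1 tumours, and Pde6c was no longer called against MYC/Otx2 in either other model (edgeR adjusted p = 0.0548 in S100b-cell tumours).

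Over all genes the counts called moved by more than 1.5 times. MYC/Otx2 over MYC/Gfi1 gave 832, with 65 to 2170 when a library was left out and 209 to 2695 otherwise. N1ICD over MYC/Otx2 gave 3315, with 1654 to 4067 and 2213 to 4653. S100b-cell over MYC/Otx2 gave 2727, with 1192 to 3482 and 1904 to 4622. N1ICD over MYC/Gfi1 gave 1754, with 797 to 2214 and 15 to 3369. S100b-cell over MYC/Gfi1 gave 663, with 12 to 1995 and 0 to 2309. N1ICD over S100b-cell gave 185, with 9 to 283 and 59 to 1367.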
